A study of Mus musculus with 6 samples.

Results

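The transcripts described here are those of 56 mouse cell cycle and DNA replication genes, chosen by name as textbook members of the division machinery and read from every probe set that the platform annotation assigns to 1 of them alone. Of the 56 genes, 55 had such a probe set, 136 probe sets in all, out of 34945 probe sets with a single symbol for 18193 genes on the array. Ccnb1 had none, and 2 further probe sets that name Tyms or Foxm1 together with other genes were left out. A filter on dim probe sets, applied to the mean over all 6 arrays, kept 95 of the 136 probe sets and 47 of the 56 genes.

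The RNA came from lymph node T cells of mice. On 3 single-colour Affymetrix arrays it came from Ezh2 fl/fl cells, in which both copies of Ezh2 carry the sites that Cre recombinase cuts in the usual notation, and on 3 from Ezh2 deficient cells. For the Cre driver, strain, age, sex, pooling and treatment the labels have no entry. Nor do they say that each array stands for its own animal, and a p-value here therefore speaks only for the scatter among these 6 arrays, part of which may be technical. Lymph node T cells are a mixture, and in bulk RNA fewer cells of a type and less RNA per cell cannot be told apart.

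A dividing cell first takes up D-type cyclins with Cdk4 and Cdk6, which lift the brake on E2F transcription factors. E2F then switches on the genes that load the MCM helicase, make deoxynucleotides and copy DNA, and a later wave of genes builds the spindle and drives mitosis. Most T cells of a resting lymph node are quiescent, while some members, such as the D cyclins, are known to be transcribed in lymphocytes outside division as well. Ezh2 is the methyltransferase subunit of Polycomb repressive complex 2, which marks silenced genes on histone H3.

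The members were placed in 3 classes by textbook role: 10 genes of G1 control and entry into S phase, 16 genes of S phase and 30 genes of mitosis. The DNA before their genes was searched for letters known from S phase and mitotic promoters. In the RefSeq promoter windows of GRCm38.p6, 250 bases before to 50 bases after the annotated start, 44 of the 56 members had an entry. The letters TTTGAA or TTCGAA, the core of the cell cycle homology region (CHR) that the DREAM and MuvB complexes are known to read, were searched on both strands, as were the E2F site letters TTTCGCGC, TTTGGCGC and TTTCCCGC and the CCAAT box letters CCAAT. The searches were independent, so matches of different motifs may overlap.

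CHR letters stood in 18 of 23 mitotic promoters (78.3%), in 2 of 14 S phase promoters (14.3%) and in 21.7% of the 27025 genes with a window. E2F letters stood in 6 of 14 S phase promoters (42.9%), in 1 of 23 mitotic ones (4.35%) and in 2.12% of all genes. CCAAT letters stood in 20 of 23 mitotic promoters (87.0%), in 9 of 14 S phase promoters (64.3%) and in 41.1% of all genes. All 18 mitotic promoters with CHR letters also held CCAAT letters, a pairing present in 9.65% of all genes. A match is a description of these letters only. In the 250 bases before the start alone, CHR letters stood in 10 of 23 mitotic promoters (43.5%) and 19.6% of all genes, and E2F letters in 4 of 14 S phase promoters (28.6%) and 1.78% of all genes. Those 250 bases are shown, 5′ to 3′ on the gene's strand, for 4 of these 10 mitotic and 2 of these 4 S phase genes, as examples in which the letters can be seen. CCAAT letters stand only upstream of the CHR letters before Mki67 and Ube2c, and on both sides of a CHR match before Top2a and Cdc20. Mcm5 and Mcm6 hold E2F letters. Capitals mark the matches, on either strand.
Mki67, chr7:135716380-135716629, minus strand: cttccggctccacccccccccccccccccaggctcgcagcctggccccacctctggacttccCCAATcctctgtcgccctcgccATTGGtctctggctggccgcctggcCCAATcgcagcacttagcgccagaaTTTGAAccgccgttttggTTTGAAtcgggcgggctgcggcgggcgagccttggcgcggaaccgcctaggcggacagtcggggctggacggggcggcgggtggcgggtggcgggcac
Top2a, chr11:99024190-99024439, minus strand: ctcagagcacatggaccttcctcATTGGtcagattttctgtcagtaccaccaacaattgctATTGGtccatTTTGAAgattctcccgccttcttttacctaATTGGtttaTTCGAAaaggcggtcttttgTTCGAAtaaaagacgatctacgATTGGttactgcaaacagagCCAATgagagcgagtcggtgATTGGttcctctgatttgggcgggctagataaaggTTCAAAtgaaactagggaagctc
Cdc20, chr4:118437344-118437593, minus strand: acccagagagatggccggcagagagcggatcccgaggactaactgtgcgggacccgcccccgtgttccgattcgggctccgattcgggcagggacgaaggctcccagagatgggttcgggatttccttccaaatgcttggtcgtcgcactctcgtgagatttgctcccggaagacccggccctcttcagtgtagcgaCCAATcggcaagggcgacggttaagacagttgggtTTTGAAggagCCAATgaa
Ube2c, chr2:164769679-164769928, plus strand: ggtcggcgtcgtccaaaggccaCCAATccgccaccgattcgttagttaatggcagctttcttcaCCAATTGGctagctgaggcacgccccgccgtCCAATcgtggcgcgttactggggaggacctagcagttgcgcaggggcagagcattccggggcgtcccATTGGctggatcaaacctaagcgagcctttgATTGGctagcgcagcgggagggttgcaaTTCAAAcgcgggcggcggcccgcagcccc
Mcm5, chr8:75109259-75109508, plus strand: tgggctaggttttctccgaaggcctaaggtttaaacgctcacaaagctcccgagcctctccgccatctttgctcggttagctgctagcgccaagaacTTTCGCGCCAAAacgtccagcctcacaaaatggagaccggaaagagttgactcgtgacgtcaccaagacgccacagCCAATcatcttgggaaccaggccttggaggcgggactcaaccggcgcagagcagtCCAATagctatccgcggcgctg
Mcm6, chr1:128359706-128359955, minus strand: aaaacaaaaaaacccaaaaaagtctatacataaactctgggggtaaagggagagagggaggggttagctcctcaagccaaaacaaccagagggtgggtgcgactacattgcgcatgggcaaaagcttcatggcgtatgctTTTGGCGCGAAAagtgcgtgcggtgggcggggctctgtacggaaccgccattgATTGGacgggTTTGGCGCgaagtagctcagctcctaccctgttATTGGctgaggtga

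Whole-series facts that bear on the members are few. Median deposited intensities ran from 163.3 to 188.1, highest on Ezh2 fl/fl replicate 1, which also had the lowest array weight in limma (0.572, against 0.959 to 1.26 for the other arrays). Ezh2 itself checked the labels: its probe set averaged 688 ± 111 against 282 ± 6.55 in normalised intensity (Ezh2 fl/fl against Ezh2 deficient, mean ± SD, n = 3 each), a difference of -1.16 on the log2 scale used below, with a limma adjusted p of 0.0705 and an exact permutation p of 0.10 (two-sided), the smallest that 3 arrays against 3 allow. Where this probe set lies relative to the deleted part of the gene is unknown here. All 13 T cell markers with a probe set passed the filter, and their summed normalised intensity ran from 107304 to 109973 on the other arrays and was 110272 on Ezh2 fl/fl replicate 1.

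No member passed the test between Ezh2 deficient and Ezh2 fl/fl T cells. Intensities were quantile normalised, turned into log2(intensity + 43.3) and compared by limma over all 27022 probe sets that passed the filter, with Benjamini-Hochberg adjustment over all of them and a threshold of 0.05. Differences below are Ezh2 deficient minus Ezh2 fl/fl on that log2 scale, which understates the change of dim probe sets. Of the 95 member probe sets tested, 0 were called, where limma called 1 of 27022 (0.0037%), and the smallest adjusted p of a member was 0.634. At an unadjusted p under 0.05 there were 2 member probe sets, both lower in the deficient cells, where 7.22% of all probe sets reached that p (3.38% lower and 3.84% higher). The groups did not overlap on 4 member probe sets, higher for E2f2 and for 1 probe set each of Ccnd2 and Mcm7 and lower for 1 of Cdk4, where they did not on 13.1% of all (6.55% higher and 6.54% lower). Robust eBayes, eBayes without an intensity trend and array weights also called 0 members.

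The intervals give the precision behind these tests. On the brightest tested probe set of each gene, 36 of the 47 members had a 95% interval of the difference within a 1.5-fold limit. Their share was 76.6%, beside 78.4% over the 12275 genes tested. By class these were 9 of 10 G1 and S entry genes, 10 of 14 S phase genes and 17 of 23 mitotic genes. The limit applied in either direction on the log2 scale used here, which understates the change of dim probe sets. In intensity itself, the interval of a dim member counted here may therefore reach beyond 1.5-fold. The median size of the difference, regardless of sign, was 0.097 over the members and 0.10 over all genes tested. The widest interval was that of Gins2, a subunit of the GINS complex of the replicative helicase, at -0.84 to 1.34.

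**Figure D1:**
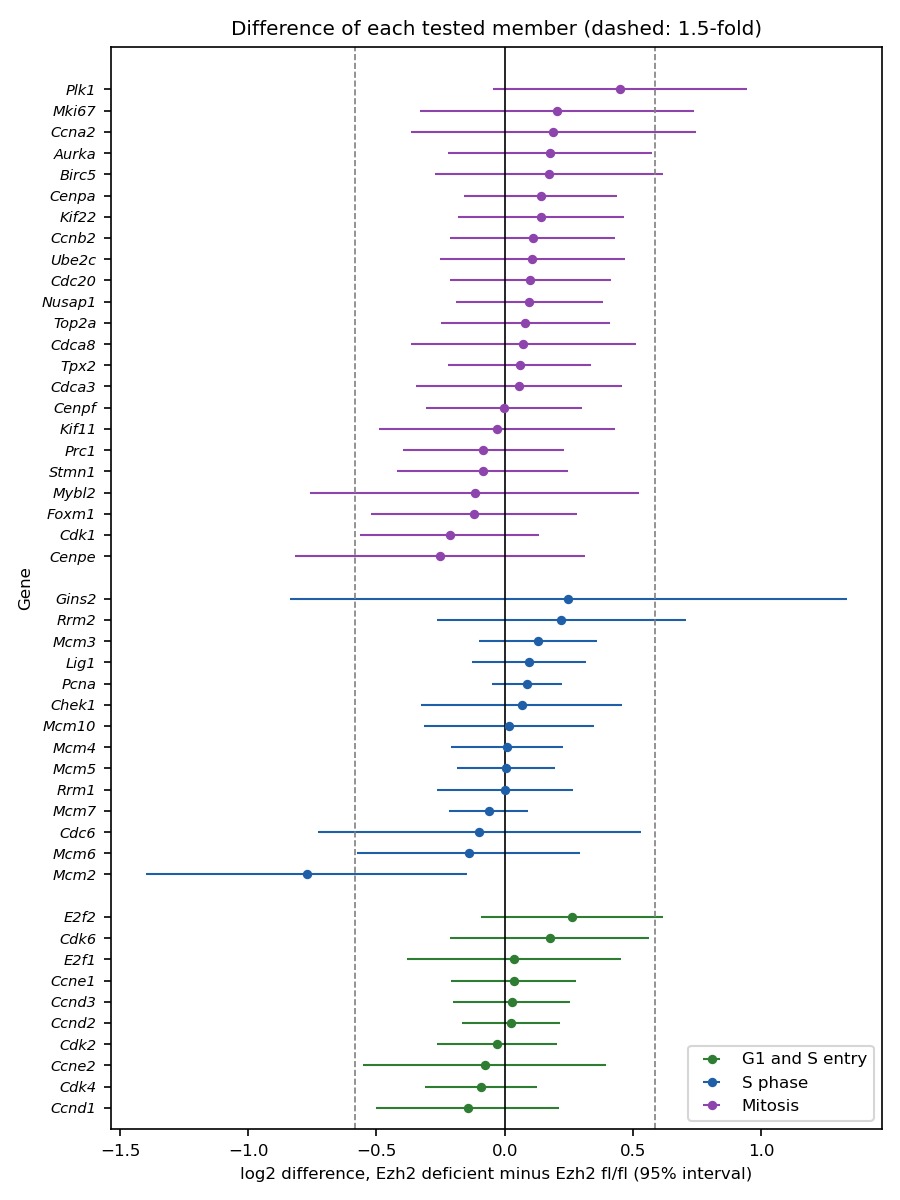
Log2 difference of each of the 47 tested members, Ezh2 deficient minus Ezh2 fl/fl, on its brightest tested probe set (point), grouped by class. Each point has its unadjusted 95% interval from limma (line). Dashed lines mark a 1.5-fold change on this log2 scale, which understates the change of dim probe sets. Only the interval of Mcm2 leaves 0 out, and 36 of 47 intervals lie between the dashed lines.

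No gene of G1 control and S phase entry passed the test. Of the 10 tested, 6 were higher and 4 lower in the deficient cells, with a median difference of 0.025, against -0.010 and 46.9% higher over all genes tested; under the deposited scaling the split was 5 of 10 and the median -0.0040. At an unadjusted p under 0.05 there were 0 of 10 on the brightest probe set, where 8.21% of all genes reached that p (4.29% lower and 3.92% higher) and limma called 0 of 12275 (0%). The class median was -0.0062 when Ezh2 fl/fl replicate 1 was left out, -0.0019 when Ezh2 deficient replicate 2 was, and -0.031 when Ezh2 deficient replicate 3 was.

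Ccnd2, the D cyclin best known from lymphocytes, read 11238, 14150.4 and 13751 on Ezh2 fl/fl replicates 1, 2 and 3 and 13654, 12399.8 and 13554 on Ezh2 deficient replicates 1, 2 and 3. The lowest value lay on Ezh2 fl/fl replicate 1, as it did on each of the 7 Ccnd2 probe sets, and the other 2 control values lay above all deficient ones. Its difference was 0.023 (95% interval -0.17 to 0.21, limma adjusted p = 0.963), and all 7 probe sets had a small positive difference, from 0.019 to 0.26. Without Ezh2 fl/fl replicate 1 the value became -0.081.

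Ccnd3, a second D cyclin of lymphocytes, read 2849, 3843 and 3297 in the controls and 3436, 3223 and 3450.1 in the deficient cells, in replicate order, again with its lowest value on Ezh2 fl/fl replicate 1. Ccnd1, the D cyclin of many non-lymphoid cells, read 371, 248 and 272 in the controls and 258, 287 and 241 in the deficient cells, with a difference of -0.14 on this probe set and 0.14 on its other tested one. The groups overlapped on all of these probe sets.

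Cdk4, the kinase partner of the D cyclins, read 1647, 2124 and 1877 in the controls and 1781, 1757 and 1724 in the deficient cells, a difference of -0.092 (95% interval -0.31 to 0.12). The deficient values lay close together and inside the range of the controls. Another Cdk4 probe set read 1019.8, 1051 and 1011 in the controls and 902, 857 and 839.6 in the deficient cells, with all deficient values under all control values there. Its difference was -0.24 (limma adjusted p = 0.634), and the third probe set was at -0.095, so the 3 probe sets shared a sign and the size differed between them.

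Cdk6, which pairs with the same cyclins, read 719, 1263 and 960.5 in the controls and 1148, 1122 and 996 in the deficient cells. Here the controls spread more widely than the deficient arrays and covered their whole range, with a difference of 0.18 (95% interval -0.21 to 0.56) that turned to -0.019 without Ezh2 fl/fl replicate 1. Cyclin E genes and their kinase had small differences: Ccne1 was at 0.035, Ccne2 at -0.077 and Cdk2 at -0.030, each with overlapping groups.

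E2f2, an activator E2F, was the 1 member of 47 whose groups did not overlap on the brightest probe set, where 14.2% of all genes did not overlap (6.4% higher and 7.8% lower). It read 202, 214 and 202 in the controls and 229, 325 and 224 in the deficient cells, 206 ± 6.97 against 259.6 ± 56.7 as means ± SD (n = 3 each). The highest value lay on Ezh2 deficient replicate 2, and the other deficient arrays stood just above the controls. Its difference was 0.26 (95% interval -0.093 to 0.62, limma adjusted p = 0.749). Its other tested probe set went the opposite way, at -0.34, with 195, 371 and 237 in the controls and 165, 253 and 179 in the deficient cells. E2f1, the founding E2F, was dim at 185, 117 and 177 in the controls and 144, 165 and 179.5 in the deficient cells, with a difference of 0.036.

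**Figure D2:**
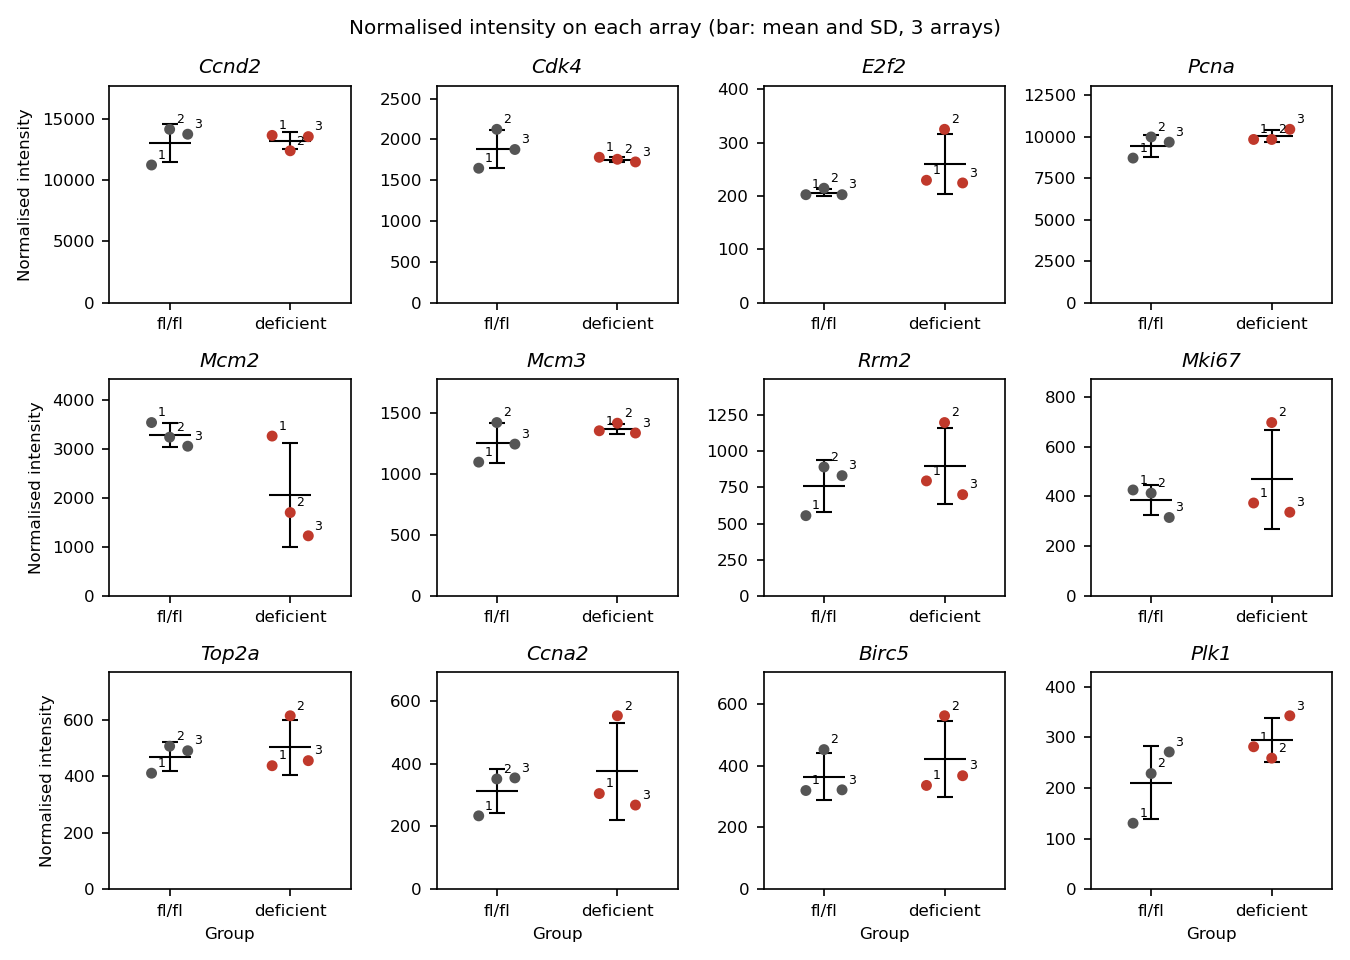
Normalised intensity (linear axis from 0) of 12 members on the brightest tested probe set, one point per array numbered by replicate, with the mean and SD of 3 arrays in each group (grey, Ezh2 fl/fl; red, Ezh2 deficient). Rrm2, Mki67, Top2a, Ccna2 and Birc5 share a single high point on Ezh2 deficient replicate 2, and Mcm2 is low on Ezh2 deficient replicates 2 and 3.

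No S phase gene passed the test either, and the largest difference was that of Mcm2. Of 16 S phase genes 14 were tested, with 10 higher and 4 lower in the deficient cells and a median difference of 0.013. When Ezh2 deficient replicate 2 was left out, 5 of 12 tested were higher and the median was -0.072. When Ezh2 fl/fl replicate 3 was, 6 of 14 were and the median was -0.0034. At an unadjusted p under 0.05 there was 1 of 14, Mcm2, which was lower, beside the 4.29% of all genes that were lower at that p. The groups overlapped for all 14.

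Mcm2 encodes a subunit of the ring-shaped MCM helicase, which is loaded at replication origins before S phase. Its brightest probe set, of the _s_at type that can match several transcripts, read 3544, 3245 and 3060.2 in the controls and 3268, 1703 and 1228 in the deficient cells. Ezh2 deficient replicate 1 lay within the controls, while replicates 2 and 3 lay far below them. The difference was -0.77 (SE 0.28, 95% interval -1.40 to -0.15, limma adjusted p = 0.636), and over the alternative settings it ran from -1.15 to -0.46 with adjusted p from 0.142 to 0.855. The other Mcm2 probe set did not share this pattern: it read 1067, 1281 and 1028 in the controls and 1039, 1277 and 1179 in the deficient cells, a difference of 0.050 with overlapping groups.

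The other helicase subunits had differences from -0.14 to 0.13 on their brightest probe sets. Mcm3 read 1098, 1423 and 1246 in the controls and 1355, 1417 and 1337 in the deficient cells, a difference of 0.13 (95% interval -0.10 to 0.36), with its 5 tested probe sets running from -0.086 to 0.13. Mcm5 read 2663, 2800.2 and 2853 in the controls and 2646, 3141 and 2599 in the deficient cells, with its 3 tested probe sets from -0.10 to 0.11. Both genes thus had probe sets of either sign, all small.

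Mcm6 read 1913, 1172 and 1141 in the controls and 1051, 1467 and 1229 in the deficient cells. Its high value on Ezh2 fl/fl replicate 1 set the sign: the difference was -0.14 with all arrays and 0.095 without that array. Mcm7 read 4738, 5037 and 5219 in the controls and 4752, 5110.4 and 4500.1 in the deficient cells, a difference of -0.062 with the narrow interval of -0.22 to 0.091, and its 4 tested probe sets ran from -0.062 to 0.13. Mcm4 was at 0.010 with the interval -0.21 to 0.23.

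Among the factors that load and activate the helicase, Cdc6, which loads the MCM ring, was at -0.099 with a wide interval of -0.73 to 0.53. Mcm10, which helps to activate the loaded helicase, read 342, 254 and 267 in the controls and 311, 253 and 307 in the deficient cells, at 0.016, with its other tested probe set at -0.17. Gins2, picked for its wide interval after its values were seen, read 79.5, 263 and 70.5 in the controls and 123, 338 and 69.5 in the deficient cells: 1 array in each group, both replicate 2, read well above the other arrays of its group.

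Pcna, the sliding clamp that holds DNA polymerase on its template, varied little between arrays. It read 8717, 9990.2 and 9678 in the controls and 9839, 9839 and 10450.0 in the deficient cells, and its difference of 0.087 had the narrowest interval of the 47 members, -0.051 to 0.23. Lig1, which joins Okazaki fragments, was at 0.096, and Chek1, the kinase that guards stalled forks, at 0.066.

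The ribonucleotide reductase genes make deoxynucleotides, and the regulatory subunit Rrm2 is the one tied to S phase. Rrm2 read 555, 891 and 831 in the controls and 795, 1198 and 700.0 in the deficient cells, highest on Ezh2 deficient replicate 2. Its difference was 0.22 (95% interval -0.26 to 0.71, limma adjusted p = 0.850), and its 3 probe sets ran from 0.12 to 0.22. The catalytic subunit Rrm1 read 841, 678 and 750.3 in the controls and 670.4, 843 and 761 in the deficient cells, at 0.0028, with its 3 tested probe sets between -0.071 and 0.017. Tyms, which makes thymidylate, and Tk1, which salvages thymidine, had no probe set above the filter.

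No mitotic gene passed the test. More were higher than lower in the deficient cells, and this majority rested on 1 array. Of 30 mitotic genes 23 were tested, and 15 were higher and 8 lower in the deficient cells, with a median difference of 0.081, beside 46.9% higher and a median of -0.010 over all genes. When Ezh2 deficient replicate 2 was left out, 7 of 23 lay on the higher side and the median was -0.059. When any other array was left out, 13 to 18 of the 22 to 24 tested did, and the median ran from 0.052 to 0.14. At an unadjusted p under 0.05 there were 0 of 23, and the groups overlapped for all 23.

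Mki67, the nuclear antigen of cycling cells, read 426, 413 and 315 in the controls and 373, 697 and 336 in the deficient cells, 385 ± 60.6 against 469 ± 198 as means ± SD (n = 3 each). Ezh2 deficient replicate 2 stood above every other array, and the other deficient arrays lay within the control range. The difference was 0.20 (95% interval -0.33 to 0.74, limma adjusted p = 0.877), and -0.096 without Ezh2 deficient replicate 2.

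Top2a, the topoisomerase that untangles chromosomes, read 410.2, 506 and 489.8 in the controls and 437, 614 and 455 in the deficient cells. Ccna2, the cyclin of S phase and early mitosis, read 234, 352 and 355 in the controls and 305, 554 and 268 in the deficient cells. Birc5, which encodes survivin of the chromosomal passenger complex, read 319.6, 452 and 322 in the controls and 336, 562 and 368 in the deficient cells. All of them shared with Mki67 the highest value on Ezh2 deficient replicate 2. Their lowest value lay on Ezh2 fl/fl replicate 1, and that of Mki67 on Ezh2 fl/fl replicate 3. Their differences were 0.081, 0.19 and 0.17 with all arrays and -0.061, -0.096 and -0.032 without Ezh2 deficient replicate 2. Cdca8, which encodes borealin of the same passenger complex, was at 0.073, with its 3 probe sets from 0.073 to 0.26. On the other tested Ccna2 probe set the difference was -0.032.

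Not every mitotic kinase followed. Plk1, the Polo-like kinase, had the largest mitotic difference, 0.45 (95% interval -0.044 to 0.95, limma adjusted p = 0.711). It read 130.2, 228 and 271 in the controls and 281, 259 and 343 in the deficient cells, and the low value of Ezh2 fl/fl replicate 1 and the high value of Ezh2 deficient replicate 3 were its extremes. Cdk1, the kinase that starts mitosis, lay on the lower side at -0.21 (95% interval -0.56 to 0.13), with 173, 219 and 191 in the controls and 179, 162 and 143 in the deficient cells. Aurka, the centrosomal Aurora kinase, read 168, 235 and 161 in the controls and 183, 255 and 215 in the deficient cells, at 0.18. Ccnb2, a B-type cyclin that partners Cdk1, was at 0.11. The groups overlapped for all of these genes.

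Centromere genes overlapped between the groups. Cenpa, the histone H3 variant of centromeres, read 720.1, 897 and 732 in the controls and 959, 931 and 721 in the deficient cells, at 0.14, and its other tested probe set was at 0.12. Cenpf, a kinetochore protein, read 286, 253 and 326 in the controls and 263, 314 and 284 in the deficient cells, at -0.0022 and 0.15 on the other probe set. Cenpe, the kinetochore motor, was at -0.25 with an interval of -0.82 to 0.32.

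Spindle genes included several whose probe sets disagreed. Tpx2, an activator of Aurora A on the spindle, read 253, 254 and 237 in the controls and 242, 261 and 279 in the deficient cells on its brightest probe set, at 0.059, while its 3 tested probe sets ran from -0.41 to 0.12. Kif11, the motor that separates spindle poles, read 136, 168 and 250.2 in the controls and 166, 205 and 157 in the deficient cells, with probe sets from -0.030 to 0.15. Nusap1, a spindle microtubule protein, read 301, 298 and 272 in the controls and 308, 354 and 282 in the deficient cells, with probe sets at 0.097 and -0.053. In each of these genes the groups overlapped on the brightest probe set, and none had the same sign on all its tested probe sets.

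Stmn1, a microtubule destabiliser, read 2878, 1967 and 2352 in the controls and 1863, 2529 and 2358 in the deficient cells, at -0.086 on this probe set and 0.081 on the other. The highest value lay on Ezh2 fl/fl replicate 1, and without that array the difference was 0.052. Kif22 was at 0.14 and Prc1, which bundles the midzone of the spindle, at -0.084.

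Of the genes of mitotic exit, Cdc20, the activator of the anaphase-promoting complex, was at 0.10 and Ube2c, its ubiquitin-conjugating enzyme, at 0.11. Cdca3, which triggers mitotic entry, read 202, 326 and 283 in the controls and 313, 294 and 233 in the deficient cells, at 0.056, but -0.51 and -0.27 on its other tested probe sets. Among the regulators of the mitotic programme, Foxm1 was at -0.12 and Mybl2 at -0.12, both with overlapping groups.

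The members that stayed below the filter were 8 genes: Tyms and Tk1 of S phase, and Cdc25c, Bub1, Bub1b, Aurkb, Kif20a and Ttk of mitosis. Counting also dim probe sets of tested genes, 41 member probe sets lay below it, with normalised intensities from 1.97 to 179 and differences from -0.52 to 0.62 that were not tested. Of these, 25 were higher and 16 lower in the deficient cells.

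Across arrays, many S phase and mitotic members shared a high value on Ezh2 deficient replicate 2. That array held the highest value of the 6 for 8 of 14 S phase genes (57.1%) and 10 of 23 mitotic genes (43.5%), but for 1 of 10 G1 and S entry genes, beside 14.2% of all genes tested. It exceeded both other deficient arrays for 11 of 14 S phase genes and 15 of 23 mitotic genes, beside 34.8% of all genes. The median member stood 0.24 above the mean of the other 2 deficient arrays in the S phase class and 0.27 in the mitotic class, and 0.0071 above it over all genes. The counts of highest values were 8 and 10 under the deposited scaling and 9 and 11 after median centring. This array was singled out after the values were seen, and the counts are a description.

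**Figure D3:**
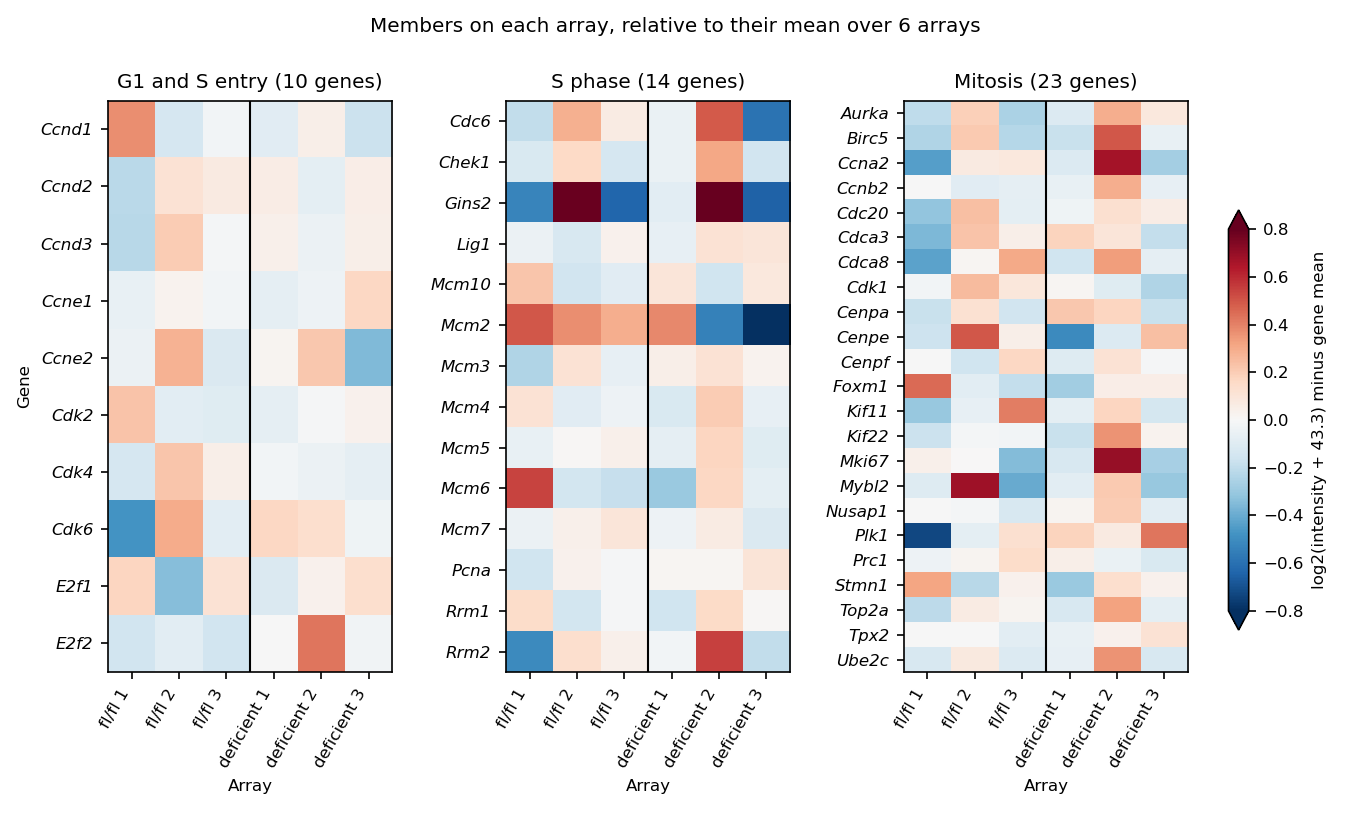
Each of the 47 tested members on each of the 6 arrays, as log2(intensity + 43.3) minus the gene's mean over the arrays (red above, blue below; values beyond 0.8 share the end colours); the black line parts Ezh2 fl/fl from Ezh2 deficient. The column of Ezh2 deficient replicate 2 is mostly red in the S phase and mitotic panels, and no panel changes colour at the black line as a whole.

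The genes that carried this pattern most were Gins2, at 1.48 above the mean of the other deficient arrays, Mki67 at 0.90, Ccna2 at 0.86, Cdc6 at 0.81, Rrm2 at 0.65 and Birc5 at 0.62. Gins2 and Cdc6 were dim, averaging 138 and 122 in the controls, near the filter at an intensity of about 113. Gins2 was also high on Ezh2 fl/fl replicate 2, at 263. On their brightest tested probe sets the S phase genes Mcm10, Mcm2 and Pcna went the other way, at -0.25, -0.23 and -0.043. So did the mitotic genes Plk1 and Prc1, at -0.23 and -0.015. For Mcm2 and Prc1, Ezh2 deficient replicate 2 lay between the other deficient arrays. The other tested probe sets of Mcm10 and Mcm2 followed the pattern, with Ezh2 deficient replicate 2 at 0.43 and 0.20 above that mean. The reverse also occurred, where the brightest probe set followed the pattern and a dimmer one did not. Such dimmer probe sets included those of Nusap1 at -0.34, Kif11 at -0.31, Mcm5 at -0.22 and Rrm1 at -0.19. Over the 95 tested member probe sets of all classes, the array was the highest for 36 (37.9%), beside 14.5% of all probe sets. Among tested mitotic genes with a promoter window, the array was the highest for 7 of 15 with CHR letters and for 2 of 4 without, which is a description over few genes. Ezh2 fl/fl replicate 1 held the lowest value for 10 of 23 mitotic genes (43.5%), 5 of 10 G1 and S entry genes and 3 of 14 S phase genes (21.4%), beside 22.8% of all genes.

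Marker levels of other cell types are given beside this pattern. The summed normalised intensity of 6 germinal centre B cell markers was 1872 on Ezh2 deficient replicate 2 and 1863 and 1941 on the other deficient arrays, with 1698 to 1866 in the controls. The 10 B cell markers summed to 1700.4 there, with 1741 and 1742 on the other deficient arrays and 1623 to 1853 in the controls. The 5 plasma cell markers summed to 921, with 974 and 720.2 on the other deficient arrays and 916 to 1018 in the controls. The 6 thymocyte markers summed to 6491, with 6232 and 6389 on the other deficient arrays and 5798 to 7042 in the controls. The myeloid, dendritic cell and stromal sums on that array were 1045, 817 and 1676, within the control ranges of the dendritic cell and stromal lists and below the 1057 to 1208 of the myeloid controls. The erythroid sum was 479, the lowest of the 6 arrays, and the natural killer cell sum was 6857, between 6417 and 7049 on the other deficient arrays and above the 5573 to 6790.2 of the controls. These sums weigh bright genes most, and the thymocyte sum is mainly Tcf12 and Cd1d1. Single markers highest on Ezh2 deficient replicate 2 were Ptcra and Rag2 of 6 thymocyte markers, Bcl6 and Rgs13 of 6 germinal centre markers, Fcer2a of 10 B cell markers and none of 5 plasma cell markers. Ptcra read 176 there and 161 and 93.5 on the other deficient arrays, and Bcl6 551 there and 527 and 485. Of the remaining lists, Csf3r, S100a8 and S100a9 of 9 myeloid markers and Batf3 of 7 dendritic cell markers were highest on that array. So were Eomes and Klra8 of 5 natural killer cell markers and Cd3e and Lat of 13 T cell markers. Of these, all but Eomes, Cd3e and Lat lay below the filter. The lists of 4 erythroid and 6 stromal markers had none. The part of these cell types in the pattern was not tested. The defining markers Rag1, Rag2 and Rgs13 lay below the filter. So did Mybl1 and Gcsam of the germinal centre list, Cd79a, Cr2, Fcer2a and Blnk of the B cell list, and Tnfrsf17 of the plasma cell list. Of the thymocyte, germinal centre, B cell and plasma cell lists 0 genes were called by limma, with 1 tested marker, Bcl6, higher at an unadjusted p under 0.05. In the remaining lists Cd6 and Gzma were higher at that limma p, and Cd8b1, Csf1r and Hba-a1 lower. Among all genes 3.92% were higher and 4.29% lower at that p.

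**Figure D4:**
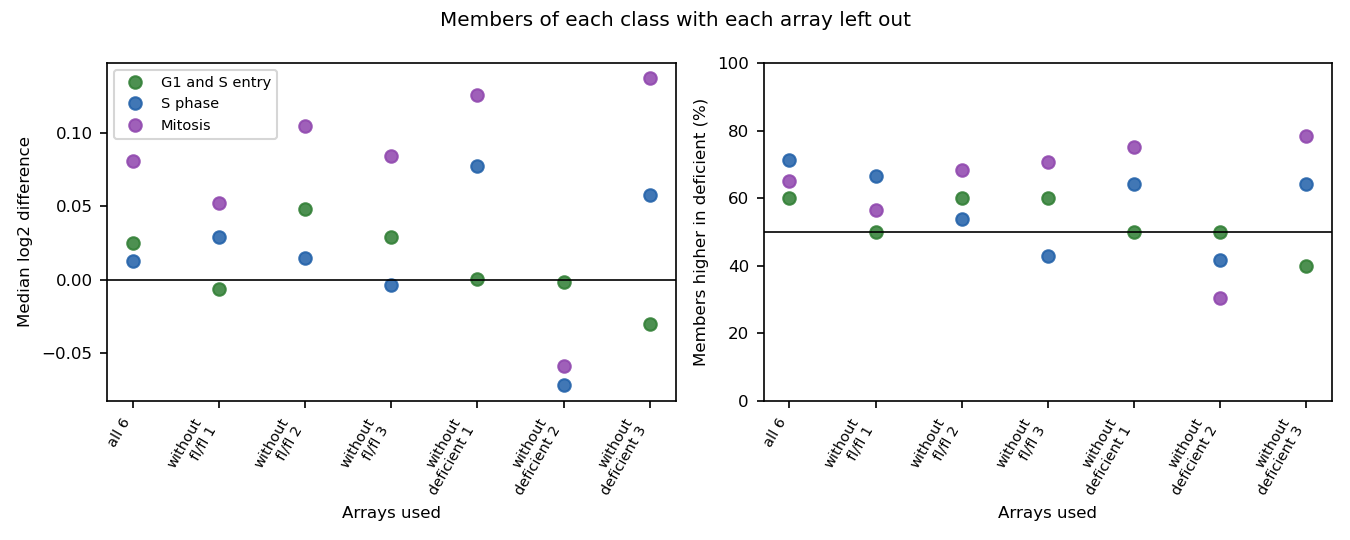
Left, median log2 difference of the tested members of each class (Ezh2 deficient minus Ezh2 fl/fl) with all 6 arrays and with each array left out; right, the percentage of those members that were higher in the deficient cells. Without Ezh2 deficient replicate 2 the mitotic median drops from 0.081 to -0.059 and the S phase median from 0.013 to -0.072.

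No other gene of these pathways was called with all 6 arrays. Of 36 further replication genes tested, from a list of 40, 22 were higher, 14 were lower and the median was 0.022, with 0 called by limma (1 higher and 0 lower at an unadjusted p under 0.05, where 3.92% of all genes were higher and 4.29% lower). Gins1, another GINS subunit, was dim, at 61.2, 118 and 120.1 in the controls and 195, 129 and 212 in the deficient cells, with all deficient values above all control values (difference 0.64, limma adjusted p = 0.636). Orc5, an origin recognition subunit, was at 0.32 with overlapping groups.

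Of 37 further mitotic genes tested, from a list of 45, 24 were higher, 13 were lower and the median was 0.026, with 0 called by limma (0 higher and 2 lower at an unadjusted p under 0.05, where 3.92% of all genes were higher and 4.29% lower, so the count of 2 of 37 is near the background). Ezh2 deficient replicate 2 was the highest array for 16 of these 37 (43.2%) and for 10 of the 36 replication genes (27.8%). The same held for 2 of the 15 E2F, Rb and DREAM family genes described below (13.3%), and for 14.2% of all genes. The 2 further mitotic genes with a p under 0.05 were Pttg1 and Nek2. Nek2, a centrosomal kinase, was at -0.42 on its brightest probe set and -0.023 on its other tested one.

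Pttg1 encodes securin, the inhibitor of separase that holds sister chromatids together until anaphase. Its brightest probe set read 8575, 5055 and 5478 in the controls and 1389, 5373 and 1593 in the deficient cells. Ezh2 deficient replicates 1 and 3 lay far below all controls, while replicate 2 lay within them. Its other probe sets gave the same order of the deficient arrays, with 1988, 1207 and 1290.5 against 337, 1159 and 429 and 480.3, 328 and 308 against 90.6, 312 and 168. On the former of these Ezh2 deficient replicate 2 also lay below all controls, though close to the lowest. The groups did not overlap there, as on 13.1% of all probe sets. The difference on the brightest probe set was -1.42 (SE 0.44, limma adjusted p = 0.619), and without Ezh2 deficient replicate 2 it was -2.03 with an adjusted p of 0.0446, so leaving out that array gave it a call.

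Of 15 tested genes of the E2F, Rb and DREAM families, from a list of 16, 5 were higher, 10 were lower and the median was -0.018, with 0 called by limma (2 higher and 0 lower at an unadjusted p under 0.05, where 3.92% of all genes were higher and 4.29% lower). These 2 were the pocket protein gene Rbl1, at 1478, 1502 and 1629 in the controls and 1795, 1748 and 1754 in the deficient cells, and Rbbp4, a histone chaperone shared by DREAM and Polycomb repressive complex 2, at 8811, 8769 and 9347 in the controls and 9414, 10293 and 9747 in the deficient cells. The groups did not overlap for either gene, as for 14.2% of all genes. Their differences were 0.20 (95% interval 0.028 to 0.37, limma adjusted p = 0.642) and 0.13 (95% interval 0.0072 to 0.25, limma adjusted p = 0.671).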

How the data were processed

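The deposited table holds linear probe set intensities for 45101 probe sets on 6 arrays. How the authors made these intensities is not given in the sources used here, and no detection calls were used. In the deposited values the mean after trimming 2% at each end was 500.002 on every array, while the medians differed by 15.2%, so the arrays were quantile normalised. The pseudocount of 43.3 is the 20th percentile of the positive values. The 64 control probe sets and those with a mean log2 value below the 40th percentile were left out. The test was limma 3.58.1 in R 4.3.3 (lmFit, then eBayes with trend, two-sided, 4 residual degrees of freedom), checked on simulated data. The number of arrays limits the precision. Symbols came from the platform annotation, which gave 34945 probe sets 1 symbol, 932 several and 9160 none, controls aside.

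The members, classes and lists were chosen with earlier results of these data known. Values of each array are given for members of 4 kinds: any called, the 4 with the smallest p in each class, 20 textbook genes fixed by name, and those whose tested probe sets differed in sign or by over 0.5. For each further list the 2 genes with the smallest p are named. Each gene stands with its brightest tested probe set. Alternatives were the scaling, pseudocount, filter, eBayes prior (robust with statmod 1.5.0), array weights, the mean of a gene's probe sets, and each array left out. Levels of all 10 marker lists are given above, and over them 0 genes were called.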

Additional observations from a re-analysis of the deposited data

How the results depend on the processing

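Under the 15 alternatives with a test 0 members were called, and Ezh2 was lower with an unadjusted limma p under 0.05 in each. Limma called 3 probe sets in all under the deposited scaling, with robust eBayes and with array weights, 2 after median centring, and 1 to 6 with an array left out (6 when it was Ezh2 deficient replicate 2, and 3 when it was Ezh2 fl/fl replicate 1). Members whose groups did not overlap numbered 2 under the deposited scaling (4.26%, beside 14.4% of all genes) and 0 of 34 at the 60th percentile filter (beside 14.7%). They numbered 3 by the mean of a gene's probe sets (6.38%, beside 14.5% of all genes) and 2 to 8 with an array left out. With an array left out these were 4.17% to 17.8% of the members tested, below the 22.1% to 25.9% of all genes under the same settings. The S phase members highest on Ezh2 deficient replicate 2 were 5 of 11 at the 60th percentile filter, an alternative added after the data were seen. With an array left out, 5 to 10 S phase and 7 to 18 mitotic members were higher, the mitotic median ran from -0.059 to 0.14, and 0 to 1 further mitotic genes were called. Of 444 values of 30 named members, 404 kept their sign. Those that turned were E2f1 at -0.035, Mcm10 at -0.027 under the deposited scaling, Cenpf at 0.020, Mcm7 at 0.043, Stmn1 at 0.0088 after median centring, and Ccnd2 at -0.012, Ccnd3 at -0.0033, Mcm5 at -0.0038 with array weights. With an array left out, the members that turned ran over these log2 differences: Birc5 -0.032 to 0.32, Ccna2 -0.096 to 0.37, Ccnd1 -0.25 to 0.0069, Ccnd2 -0.081 to 0.085, Ccnd3 -0.079 to 0.13, Cdca3 -0.11 to 0.19, Cdk6 -0.019 to 0.37, Cenpf -0.081 to 0.080, E2f1 -0.13 to 0.13, Kif11 -0.19 to 0.17, Mcm10 -0.057 to 0.13, Mcm5 -0.078 to 0.055, Mcm6 -0.27 to 0.095, Mki67 -0.096 to 0.39, Rrm1 -0.073 to 0.084, Stmn1 -0.22 to 0.052, Top2a -0.061 to 0.16. The cause was not tested. No paired analysis was possible because the titles number the arrays in 1 run across both groups and no number is shared. The mean of a gene's probe sets has no test here.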
